A study of Mus musculus with 2 samples.

Results

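The genes described here carry phosphate across the membranes of kidney tubule cells, receive the hormones that set its excretion, or hold the transporters at the brush border. They are 10 genes chosen by name, of 43346 genes quantified. The sodium-phosphate cotransporters are Slc34a1, Slc34a2, Slc34a3, Slc20a1 and Slc20a2, and Xpr1 encodes a phosphate exporter. Pth1r encodes the parathyroid hormone receptor and Kl encodes Klotho, the co-receptor of the hormone FGF23. Slc9a3r1 and Pdzk1 encode the PDZ scaffold proteins NHERF1 and NHERF3. All 10 symbols matched 1 gene each. RNA came from kidney tissue of the inbred strain C57BL/6J, from an adult female aged 10 weeks, and no treatment is named. The labels name the RNeasy Lipid Tissue Mini Kit as the extraction method for both libraries. Polyadenylated RNA was sequenced in 2 libraries, technical replicates 2 and 1 of 1 biological replicate, called library 2 and library 1 below. The labels date replicate 2 to May 2015 and give a size range of 350 to 450 for both. With 1 group and 1 tissue sample, each SD below is a spread between libraries and says nothing about differences between animals.

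The kidney filters phosphate from the blood and takes most of it back in the proximal tubule, where the SLC34 transporters in the brush border move it into the cell together with sodium. Parathyroid hormone, through its receptor, and FGF23, a bone hormone that binds FGF receptors together with Klotho, lower this uptake by withdrawing the transporters from the brush border. The PDZ scaffolds bind the tail of the main transporter and hold it at the membrane.

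Stretches of the coding sequence of 6 of the genes are shown because the difference between the libraries ran with base composition, described below. Each is 120 bases from GENCODE M21 on GRCm38 (mm10), given 5′ to 3′ on the gene's strand, with G and C in capitals. The stretch chosen was the one nearest in GC content to the gene's whole coding sequence. Pth1r (exon 4 of Pth1r-202, chr9:110729601-110729720, minus strand) had a GC content of 57.5%, Slc9a3r1 (exon 1, chr11:115163585-115163704, plus strand) 60.8%, and Slc34a1 (exon 3, chr13:55400709-55400828, plus strand) 58.3%. Slc34a3 (exon 4 of Slc34a3-201, chr2:25232387-25232506, minus strand) had 56.7%, Kl (exon 3, chr5:150982543-150982662, plus strand) 54.2%, and Xpr1 (exon 9 of Xpr1-201, chr1:155312818-155312937, minus strand) 45.8%.
Pth1r: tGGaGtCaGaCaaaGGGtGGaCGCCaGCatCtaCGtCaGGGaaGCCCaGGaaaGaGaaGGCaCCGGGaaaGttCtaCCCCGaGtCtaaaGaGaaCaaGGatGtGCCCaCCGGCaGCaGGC
Slc9a3r1: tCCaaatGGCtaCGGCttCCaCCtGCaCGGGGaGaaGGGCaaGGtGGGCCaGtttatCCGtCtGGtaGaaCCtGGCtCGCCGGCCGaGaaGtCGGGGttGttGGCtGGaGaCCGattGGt
Slc34a1: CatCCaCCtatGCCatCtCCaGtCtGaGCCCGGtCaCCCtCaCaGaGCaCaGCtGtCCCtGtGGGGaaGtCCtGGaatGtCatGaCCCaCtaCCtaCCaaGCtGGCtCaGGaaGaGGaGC
Slc34a3: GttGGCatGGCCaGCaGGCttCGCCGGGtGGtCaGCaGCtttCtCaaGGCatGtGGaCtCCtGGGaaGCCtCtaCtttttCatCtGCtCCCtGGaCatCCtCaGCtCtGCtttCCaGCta
Kl: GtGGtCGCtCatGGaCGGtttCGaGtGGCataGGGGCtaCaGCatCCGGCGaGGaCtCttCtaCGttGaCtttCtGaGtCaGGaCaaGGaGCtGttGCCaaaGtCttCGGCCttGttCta
Xpr1: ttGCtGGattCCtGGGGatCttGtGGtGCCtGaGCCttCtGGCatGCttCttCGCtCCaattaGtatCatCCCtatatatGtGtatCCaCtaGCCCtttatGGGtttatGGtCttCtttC
Capitals took from 45.8% of the stretch in Xpr1, whose full transcript had the lowest GC content of the 10 genes, to 60.8% in Slc9a3r1.

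All 10 genes are annotated as protein-coding in GENCODE M21 on GRCm38. Slc34a1 spans chr13:55398187-55415592 (plus strand), Slc34a2 chr5:53038081-53071664 (plus) and Slc34a3 chr2:25228898-25234364 (minus). Slc20a1 spans chr2:129198764-129211616 (plus), Slc20a2 chr8:22476788-22569612 (plus) and Xpr1 chr1:155275701-155417415 (minus). Pth1r spans chr9:110722085-110747145 (minus), Kl chr5:150952607-150993817 (plus), Slc9a3r1 chr11:115163341-115181181 (plus) and Pdzk1 chr3:96829284-96870926 (plus). Kl and Slc34a2 share chromosome 5, and Slc34a3 and Slc20a1 share chromosome 2, in each case far apart.

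The tissue label was set against marker genes of kidney segments. Of 30 markers in 6 lists for the proximal tubule, thick ascending limb, distal convoluted tubule, connecting tubule, collecting duct, and podocytes with endothelium, 28 reached TPM 1 in both libraries. TPM is a length-corrected share of a library. The exceptions were Aqp2, the vasopressin-regulated water channel, with 176 TPM in library 2 and 0.79 in library 1, and Slc7a13, with 0.81 and 1.03 TPM. Over all 43346 genes, 13223 reached TPM 1 in library 2 and 9532 in library 1. All 4 markers of parathyroid and bone (Pth, Gcm2, Bglap and Sost) were under TPM 1 in both libraries. Of 4 lung and intestine markers Sftpc and Sftpb were at 0. Of the other 2, Fabp2 had 0.31 and 0.54 TPM, and Vil1, a brush border protein that the kidney also makes, had 64.7 TPM in library 2 and 7.26 in library 1. Expected counts, the estimated reads per gene, summed to 20720519 in library 2 and 28263718 in library 1 after rounding. The mitochondrial share of TPM was 19.8% in library 2 and 51.7% in library 1, and with 7 nuclear copies of them the shares were 36.5% and 74.5%. Since TPM sums to the same total in each library, these shares lower every other TPM, more so in library 1. The 10 phosphate genes together made up 2605 TPM in library 2, which is 0.261% of that library, and 343 TPM in library 1, which is 0.0343%.

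Slc34a1 was the most abundant of the 6 transporters among the 10 genes in both libraries. It encodes NaPi-IIa, the main phosphate uptake protein of the proximal tubule brush border. Its level was 1337 TPM in library 2 and 93.5 in library 1, from 63628 and 8341 expected counts. It ranked 52 among all genes in library 2 and 457 in library 1. Slc34a1 made up 94.7% of the TPM of the SLC34 family in library 2 and 97.7% in library 1, so its lead within the family held in both. In bulk tissue a level sums over all cells, so the number of expressing cells and the RNA per cell cannot be told apart. This limit is on reading the level itself, since both libraries came from 1 tissue sample.

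Slc34a3 encodes NaPi-IIc, a second brush border transporter that moves phosphate without net charge. It had 72.3 TPM in library 2 and 1.39 in library 1, from 1330 and 19 expected counts. It was thus far higher in library 2, where it took 5.12% of the family's TPM, against 1.45% in library 1. Slc34a2 encodes NaPi-IIb, the form known mainly from the small intestine and lung. It had 2.09 TPM in library 2 and 0.81 in library 1, the lowest level of the 10 genes in both, and 0.148% and 0.846% of the family's TPM.

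The SLC20 transporters, PiT-1 and PiT-2, are sodium-phosphate cotransporters found in most tissues. Slc20a1 (PiT-1) had 12.6 TPM in library 2 and 5.37 in library 1. Slc20a2 (PiT-2) had 18.1 TPM in library 2 and 3.48 in library 1. Their order differed between the libraries, with Slc20a1 at 41.1% of the pair's TPM in library 2 and 60.7% in library 1. Together they held 30.7 TPM in library 2 and 8.85 in library 1, far below the SLC34 family, whose members summed to 1411 and 95.7 TPM.

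Xpr1 encodes the phosphate exporter of vertebrate cells, a protein that senses inositol pyrophosphates. It had 23.2 TPM in library 2 and 21.4 in library 1, the smallest change in TPM of the 10 genes, a ratio of 1.09. Among the 6 transporters its share was 1.58% in library 2 and 17.0% in library 1, beside 91.2% and 74.3% for Slc34a1.

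On the hormone side, Pth1r differed most between the libraries and Kl little. Pth1r had 243 TPM in library 2 and 2.54 in library 1, from 8151 and 159 expected counts. It ranked above Kl in library 2 and below both SLC20 genes in library 1. Kl had 139 TPM in library 2 and 93.0 in library 1, from 11221 and 14123 expected counts. It was thus abundant in both libraries, and in library 1 it was nearly level with Slc34a1.

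Both scaffolds were abundant in library 2. Pdzk1 had 621 TPM in library 2 and 112 in library 1, below only Slc34a1 in library 2 and above all the other 9 genes in library 1. Slc9a3r1, which also anchors the sodium-proton exchanger and was first found as its regulator, had 137 TPM in library 2 and 9.16 in library 1. It stood between Kl and Slc34a3 in library 2 and between Xpr1 and Slc20a1 in library 1. No source used here gives the strand setting of the counting. Exons of 4 phosphate genes lie partly within the span, introns included, of genes on the opposite strand. In Pdzk1 1333 bases lie within Gpr89, itself at 13.3 TPM in library 2 and 2.71 in library 1. The longest stretch shared with a Gpr89 transcript at 95% identity or more was 817 bases. In Slc20a1 2147 bases lie within 9830144P21Rik, at 0.02 and 0.03 TPM, with a longest shared stretch of 231 bases. Slc20a1 also has 229 bases within Gm4430, at 0.97 TPM in library 2 and 0.76 in library 1. In Pth1r 352 bases lie within Myl3, at 0.86 TPM in library 2 and 0 in library 1, and no shared stretch was found. In Slc20a2 95 bases lie within Smim19, at 22.8 and 16.3 TPM, all of them shared. How far the counts of these 4 genes are affected was not tested, so they remain uncertain.

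**Figure D1:**
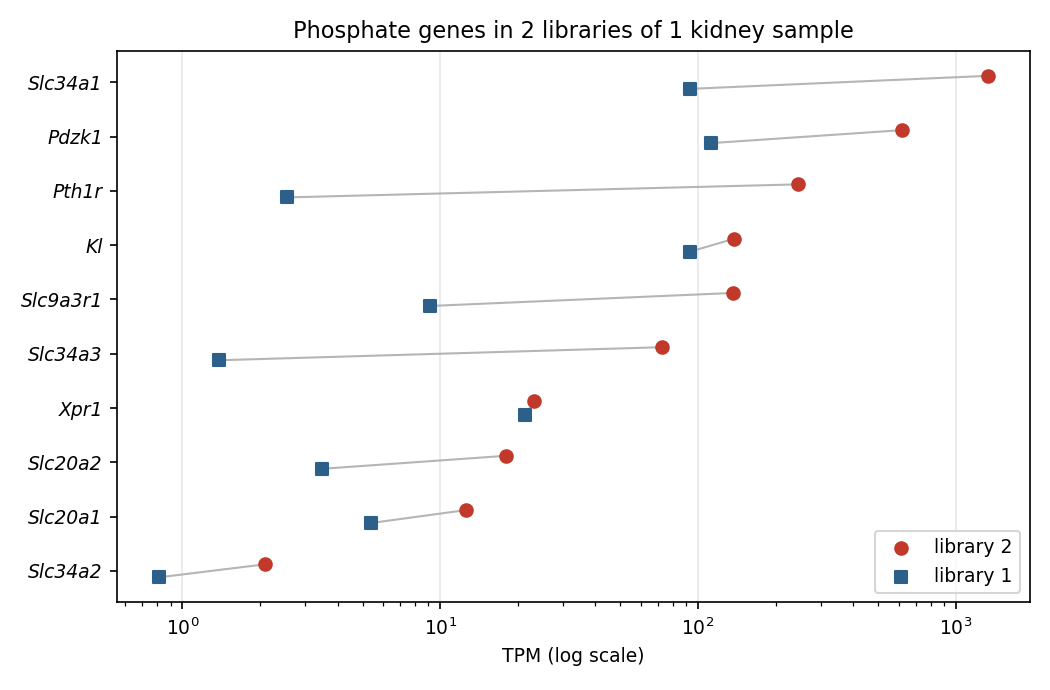
Level of each phosphate gene in TPM (horizontal log axis) in library 2 (circles) and library 1 (squares), ordered by mean level from the top; a grey line joins the libraries of a gene. All 10 genes had the higher TPM in library 2, from 1.09 times for Xpr1 to 95.8 times for Pth1r.

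By mean level the order was Slc34a1 at 715 ± 879 TPM, Pdzk1 at 367 ± 360, Pth1r at 123 ± 170, Kl at 116 ± 32.2 and Slc9a3r1 at 73.2 ± 90.5 TPM (SD, n = 2 libraries). Below them came Slc34a3 at 36.8 ± 50.1, Xpr1 at 22.3 ± 1.29, Slc20a2 at 10.8 ± 10.3, Slc20a1 at 8.99 ± 5.12 and Slc34a2 at 1.45 ± 0.905 TPM. Neighbours in this order overlapped in their ranges over the libraries, except Xpr1 above Slc20a2 and Slc20a1 above Slc34a2. In the plot of levels by library, the distance between the libraries is widest for Pth1r, Slc34a3 and Slc9a3r1. Library 2 alone gave the same order at all 10 places, and library 1 alone at 2, those of Slc9a3r1 and Slc34a2. Among the 5 genes nearest to Slc34a1 in log2(TPM + 1) over the 2 libraries were Ldhb, Uqcrh, Gm10681 and Sod1. Ldhb, a lactate dehydrogenase subunit, had 1379 TPM in library 2 and 131 in library 1, at a distance of 0.48 on that log2 scale.

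The libraries were then compared gene by gene on expected counts scaled by TMM, a factor that sets the bulk of genes level. Each of 15553 genes got an exact binomial p, two-sided, with Benjamini-Hochberg adjustment. Calls needed a log2 ratio of library 2 over library 1 of at least 1 in size, with an adjusted p under 0.05. The test compares 2 libraries, not conditions; it has no replicate check, and its p-values and the 95% Clopper-Pearson intervals below cover counting error only. Of the 10 phosphate genes, 6 were called higher in library 2, where 35.5% of all tested genes were, and 1 was called higher in library 1, where 24.9% were. Scaled by total counts instead, 6 of the 10 were called higher in library 2, beside 49.1% of all genes. In library 1 it was 0 of the 10, beside 710 of the 15553 genes. The median log2 ratio was 1.05 over the 10 genes and 0.12 over all genes tested.

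The largest log2 ratios were those of Slc34a3 at 5.64 (interval 5.02 to 6.41, adjusted exact p = 1.79e-280) and Pth1r at 5.22 (interval 4.997 to 5.459). Slc9a3r1 at 2.54 and Slc34a1 at 2.48 followed. These 4 genes were higher in library 2 under every scaling tried that left base composition alone. Pdzk1, at 1.08 (interval 1.04 to 1.12), and Slc20a2, at 1.01 (interval 0.84 to 1.19, adjusted exact p = 1.63e-33), lay at the threshold, and Slc20a2 stood at 0.97 and was not called with DESeq2 size factors.

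Xpr1 was the gene called higher in library 1, with a log2 ratio of -1.32 (interval -1.39 to -1.25). By total counts, which moves the median of all genes by 0.90 on the log2 scale, Xpr1 stood at -0.41 and was not called. Kl stood at -0.79 (interval -0.82 to -0.75), short of the threshold, and at 0.12 by total counts, so its direction depends on the scaling. Slc20a1 at -0.07 and Slc34a2 at -0.00 were close to level, and by total counts they stood at 0.84 and 0.90. Xpr1 and Kl thus lay below 0 on the TMM scale although their TPM was higher in library 2. When the TPM sum was taken without the mitochondrial genes and their copies, Xpr1 had 36.5 TPM in library 2 and 83.9 in library 1, and Kl had 218 and 365 TPM. Slc20a1 then also stood higher in library 1, at 21.1 TPM against 19.9 in library 2.

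The 10 ratios followed the GC content of the genes' leading transcripts. The 4 genes of highest GC content were Pth1r (59.6%), Slc9a3r1 (58.5%), Slc34a3 (56.4%) and Slc34a1 (56.4%), and they had the 4 highest log2 ratios. Xpr1, with the lowest GC content (43.6%), had the lowest ratio. Across the 10 genes, which share the same 2 libraries, Spearman's rho between GC content and log2 ratio was 0.94, and it was 0.91 across 11508 genes with at least 100 counts. The coding stretches printed above only illustrate base composition, since each was picked to match its gene's coding GC content. Capitals took 57.5% of bases for Pth1r and 45.8% for Xpr1. They took more for Slc9a3r1 (60.8%) and Slc34a1 (58.3%), whose log2 ratios were below that of Pth1r. For Slc34a1 the GC content comes from a reference transcript shorter than the deposited length, and this one gene fell outside the 10% tolerance set on that match.

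**Figure D2:**
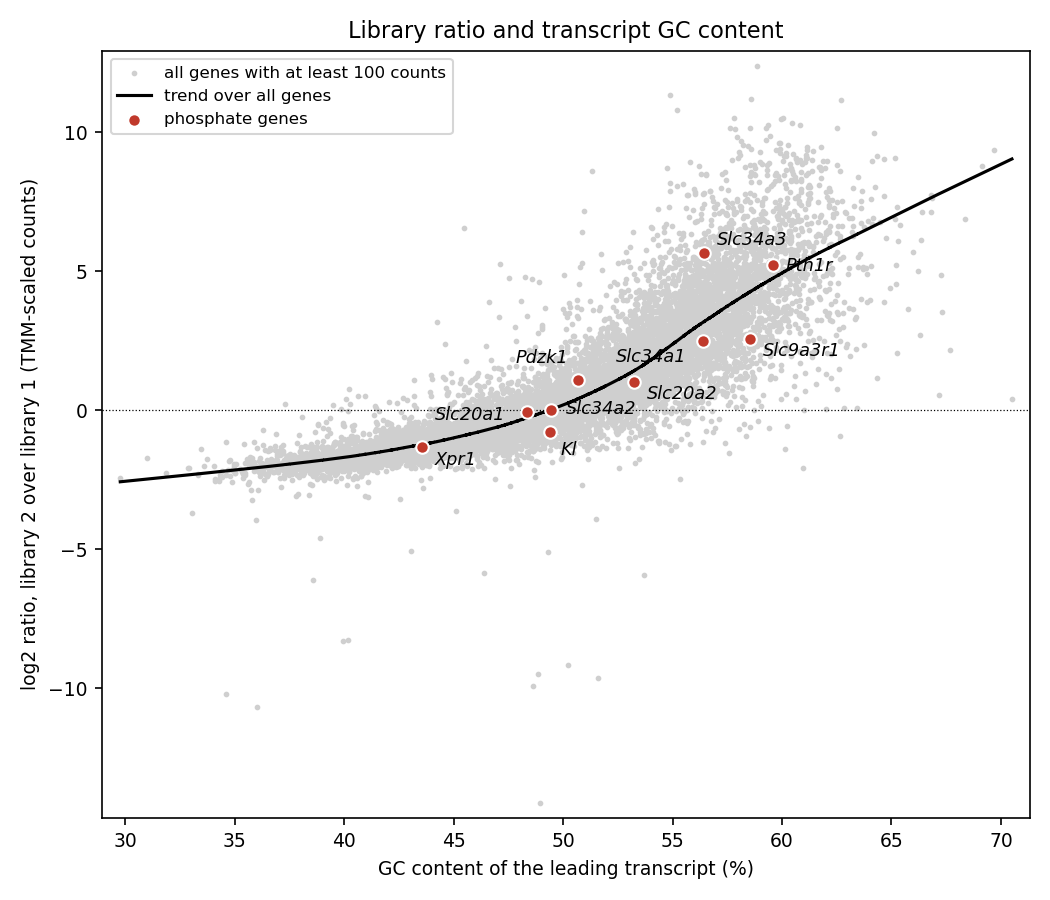
GC content of the leading transcript (horizontal axis, percent) against the log2 ratio of library 2 over library 1 on TMM-scaled counts (vertical axis), for all genes with at least 100 counts (grey), their smoothed trend (line) and the 10 phosphate genes (red). The phosphate genes run along the trend from Xpr1 at 43.6% GC to Pth1r at 59.6%, with Slc34a3 above it and Slc9a3r1 and Kl below it.

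Set against genes within 1 percentage point of the same GC content, 6 of the 10 lay between the quartiles, which hold 50% of such genes by definition. Pth1r, at 5.22, was close to the median of 4.90 for such genes, and 56.3% of them lay below it. Slc34a1, at 2.48, was below its median of 3.25, with 33.2% of such genes lower. Xpr1 at -1.32 was near its median of -1.26, and Slc34a2 at -0.00 near its median of 0.01. Slc20a1 and Slc20a2 were also between the quartiles, with medians for like genes of -0.27 and 1.41.

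The other 4 genes lay outside the quartiles, 2 above and 2 below, which is no more than the share of like genes that does. Slc34a3 lay above, at 5.64 against a median of 3.27, with 90.9% of such genes lower. Pdzk1 lay above too, at 1.08 against 0.37, with 79.2% lower. Kl lay below, at -0.79 against -0.01, with 10.4% lower, and Slc9a3r1 lay below at 2.54 against 4.20, with 17.7% lower. Slc34a3 and Slc34a1 both had a GC content of 56.4% with log2 ratios of 5.64 and 2.48, but that GC content is uncertain for Slc34a1, whose reference transcript has 2433 bases against 3081 deposited, and Slc34a3 rests on 19 counts in library 1.

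With the trend of all genes on GC content removed, 2 of the 10 genes were still called, 1 in each direction. Slc34a3 was higher in library 2 at a log2 ratio of 2.46 (adjusted exact p = 2.84e-23), where 11.3% of 14802 genes tested were called. Slc9a3r1 was then higher in library 1 at -1.72 (adjusted exact p = 1.89e-99), where 10.7% were called, so its direction turned. Slc34a1 turned to -0.68 and Slc20a2 to -0.41, neither called. Pth1r moved to 0.48, Pdzk1 to 0.67, Xpr1 to -0.08 and Slc20a1 to 0.22, and Kl was at -0.79 and Slc34a2 at -0.02. The SD of the 10 log2 ratios was 2.39 before and 1.11 after, and Spearman's rho with GC content was 0.07 after.

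**Figure D3:**
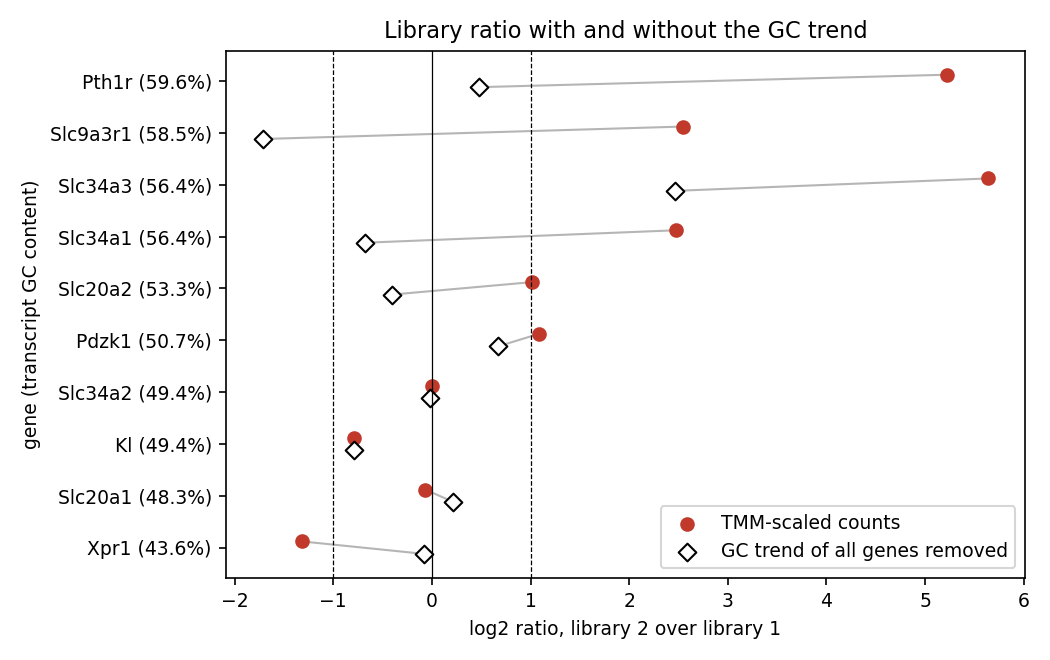
Log2 ratio of library 2 over library 1 (horizontal axis) for each phosphate gene on TMM-scaled counts (red circles) and with the GC trend of all genes removed (open diamonds), ordered by GC content; dashed lines mark the threshold of 1 in each direction. After removal only Slc34a3 at 2.46 and Slc9a3r1 at -1.72 lie outside the dashed lines.

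Transcript shares add detail to the 6 genes with several transcripts in the deposited quantification. The 10 genes had 39 transcripts in the tables, of which 29 were above 0 in library 2 and 25 in library 1. Slc34a1, Slc20a2, Kl and Slc9a3r1 had 1 transcript each there, although GENCODE M21 lists more for Slc34a1, Slc20a2 and Kl. Xpr1 and Pdzk1 were led by the same protein-coding transcript in both, Xpr1-201 at 89.9% of the gene's TPM in library 2 and 97.3% in library 1, and Pdzk1-201 at 95.8% and 97.7%. Slc34a2-201 took 100% in both by the deposited percent, and 83.3% and 88.1% when shares were taken from posterior means.

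Pth1r had 2 transcripts in the deposited quantification, both protein-coding. Pth1r-202 took 81.9% of the gene's TPM in library 2 and 100% in library 1, and Pth1r-201 took 18.1% and 0%. In library 1, with 159 counts for the gene, the authors' credibility interval for Pth1r-201 ran from near 0 to 2.03 TPM, and posterior means gave it 30.2%, against 18.4% in library 2. Whether Pth1r-201 was present in library 1 was not detectable at this depth. The transcripts start at different places, Pth1r-202 at position 110743686 and Pth1r-201 at 110742719 of chromosome 9 on the minus strand. The 250 bases before the start of Pth1r-202 (chr9:110743687-110743936, minus strand, RefSeq on GRCm38.p6) are shown. Of the 2 transcripts quantified, Pth1r-202 had the larger deposited share in both libraries. In library 1 their credibility intervals overlapped, with 0.343 to 2.69 TPM for Pth1r-202. GENCODE M21 also lists transcripts that start further upstream, among them Pth1r-205 at 110747145. These were absent from the deposited quantification, so which start was used most is not settled. The 1 match to GGGCGG, the core of a GC box, is in capitals.
Pth1r-202 upstream: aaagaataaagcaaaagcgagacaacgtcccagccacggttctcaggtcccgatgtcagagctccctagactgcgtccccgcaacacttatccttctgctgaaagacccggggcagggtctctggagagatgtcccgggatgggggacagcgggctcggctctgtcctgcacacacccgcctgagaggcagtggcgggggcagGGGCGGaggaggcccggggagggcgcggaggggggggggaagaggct
GGGCGG was searched on both strands and found in 32.7% of 32851 RefSeq promoters of the same length, and TATAAA in 12.4%. This stretch had a GC content of 65.6%, against a median of 52.4% over those promoters, and no TATAAA.

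Slc34a3 and Slc20a1 showed the largest differences in transcript shares. Slc34a3-201, the protein-coding transcript, took 46.2% of the gene's TPM in library 2 and 2.49% in library 1. The noncoding Slc34a3-206 took 44.7% and 36.7%, Slc34a3-205 took 3.78% and 42.3%, and Slc34a3-203 took 2.41% and 18.5%. The library 1 shares divide 19 counts over the whole gene. From posterior means the library 1 shares were 25.1% for Slc34a3-205, 29.5% for Slc34a3-206 and 2.64% for Slc34a3-201, so the noncoding form in the lead there depends on the estimate. By expected counts, Slc34a3-201 had 1095 in library 2 and 2.12 in library 1.

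For Slc20a1 the leading transcript changed between 2 protein-coding forms. Slc20a1-201 took 69.0% of the gene's TPM in library 2 and 16.0% in library 1, and Slc20a1-202 took 0% and 47.8%. Their credibility intervals in library 1 overlapped, at 0.225 to 2.37 TPM for Slc20a1-201 and 0.889 to 3.15 TPM for Slc20a1-202. In library 2 they did not overlap, at 6.39 to 8.82 TPM for Slc20a1-201 and up to 1.55 TPM for Slc20a1-202. Slc20a1-205 took 9.56% in library 2 and 12.7% in library 1, and the retained-intron form Slc20a1-206 took 7.13% and 14.0%.

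**Figure D4:**
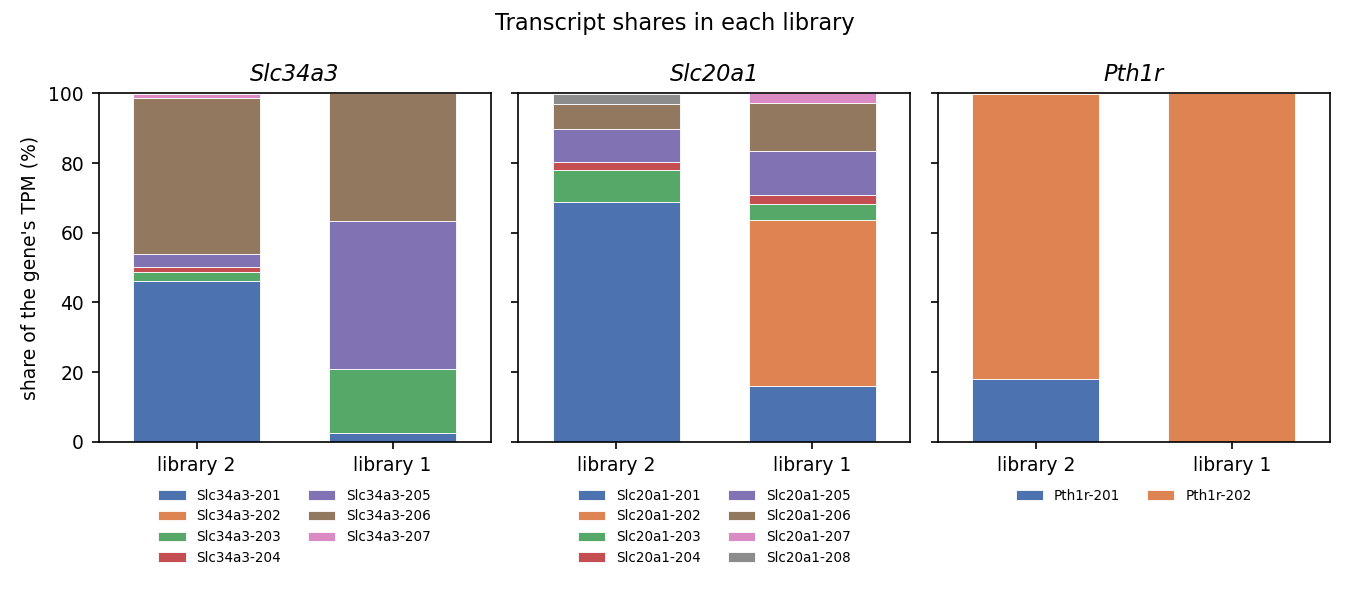
Share of each annotated transcript in its gene's TPM (vertical axis, percent; deposited values) for Slc34a3, Slc20a1 and Pth1r, with library 2 as the left bar and library 1 as the right bar of each panel. The leading transcript differs between the libraries in Slc34a3 and Slc20a1, and is Pth1r-202 in both for Pth1r.

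Other genes of phosphate control were taken from 8 lists of 49 genes. In the comparison of the libraries 43 of the 49 were tested. Of these, 20 were called higher in library 2 and 8 in library 1, and 15 were not called, with a median log2 ratio of 0.98. Over all genes tested 35.5% and 24.9% were called in these directions, and the same shares stand behind the counts of each list below. By total counts 31 were called higher in library 2, where 49.1% of all genes were. In library 1 it was 0, where 710 of 15553 genes were, so the split between the libraries depends on the scaling. With the GC trend removed, 6 of 42 were called higher in library 2 and 4 in library 1, near the 11.3% and 10.7% of all genes.

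RNA of the hormones themselves was hardly detected. Fgf23 and Pth had 0 expected counts in both libraries, and a count of 0 allows up to 3. Pthlh, the relative of parathyroid hormone that shares its receptor, had 0.09 TPM in library 2 and 0.07 in library 1. Klb, the co-receptor of other endocrine FGFs, had 0.06 and 0.04 TPM, in contrast to Kl. Dmp1 had 0 counts in both and Phex had 0 TPM in library 2 and 0.03 in library 1; these 2 genes are known for restraining FGF23 in bone.

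The 4 FGF receptor genes were all present in library 2, and 2 of them reached TPM 1 in both libraries. Fgfr1 had 23.5 TPM in library 2 and 1.38 in library 1, and Fgfr2 had 15.7 and 8.10 TPM. Of the 4 receptors, 3 were called higher in library 2 (35.5% of all genes) and 0 in library 1 (24.9%), with Fgfr2 not called at a log2 ratio of -0.07. Fgfr1 stood at 2.24 and at -0.35 with the GC trend removed. After that removal 1 receptor was still called, Fgfr4, singled out here for that call, at 1.98 against 6.35 before. Both Fgfr4 ratios rest on 6 expected counts in library 1, beside 718 in library 2.

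Vitamin D genes matter here since the proximal tubule makes the active hormone. Vdr, its receptor, had 87.1 TPM in library 2 and 20.5 in library 1. Cyp24a1, which degrades the hormone, had 31.0 and 11.0 TPM. Cyp27b1, which makes it, had 0.84 TPM in library 2 and 0.15 in library 1, under TPM 1 in both. Of the 5 genes in this list 3 were called higher in library 2 (35.5% of all genes) and 0 in library 1 (24.9%), and 0 were called with the GC trend removed.

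Among 6 other scaffold and partner genes of the brush border, 3 were called higher in library 2 (35.5% of all genes) and 1 in library 1 (24.9%), and with the GC trend removed 2 and 2 (11.3% and 10.7%). Pdzk1ip1, a membrane protein that binds Pdzk1, had 938 TPM in library 2 and 20.5 in library 1, above Pdzk1 in library 2 and below it in library 1. Its log2 ratio was 4.61, and 2.49 with the GC trend removed. Ezr, the linker of the brush border to actin, had 182 TPM in library 2 and 44.9 in library 1.

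Among 11 genes that carry the signal of the parathyroid hormone receptor, 6 were called higher in library 2 (35.5% of all genes) and 3 in library 1 (24.9%), and with the GC trend removed 2 and 1 (11.3% and 10.7%). Gnas, the stimulatory G protein subunit, had 436 TPM in library 2 and 122 in library 1. Prkar1a, a regulatory subunit of protein kinase A, had 101 and 58.9 TPM. Neither was called, with log2 ratios of 0.50 for Gnas and -0.55 for Prkar1a. With the GC trend removed Gnas was called higher in library 1 at -1.52, and Prkar1a stood at 0.29.

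The inositol pyrophosphate kinases make the molecules that Xpr1 senses. Ip6k2 had 47.2 TPM in library 2 and 30.8 in library 1, Ip6k1 had 29.8 and 16.3 TPM, and Ip6k3 was under TPM 1 in both at 0.43 and 0.05 TPM. Of the 5 kinases, 1 was called higher in library 2 (35.5% of all genes) and 1 in library 1 (24.9%). Ip6k1 was the kinase called higher in library 2, at 1.88 from 1970 and 389 expected counts. It stood at -0.49 with the GC trend removed. With the GC trend removed 1 was called, Ip6k2, higher in library 2 at 1.93 against 0.18 before.

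Of 8 other genes that handle phosphate or pyrophosphate, 3 were called higher in library 2 (35.5% of all genes) and 1 in library 1 (24.9%), and 0 were called with the GC trend removed. Slc25a3, the mitochondrial phosphate carrier, had 683 TPM in library 2 and 361 in library 1. Slc17a1, a proximal tubule transporter first described as a sodium-phosphate cotransporter, had 375 and 259 TPM. Slc17a1 thus exceeded Slc34a1 in library 1 and not in library 2. Of 7 genes that regulate FGF23 or act beside it, 4 were tested, and 1 was called higher in library 2 (35.5% of all genes) and 2 in library 1 (24.9%). Galnt3, which glycosylates FGF23, had 22.4 TPM in library 2 and 18.6 in library 1. On the TMM scale Galnt3 was called higher in library 1 at a log2 ratio of -1.43. It stood at -0.28 with the GC trend removed. Fam20c, a secretory pathway kinase that phosphorylates FGF23, had 32.8 TPM in library 2 and 1.25 in library 1. Fam20c was the gene called higher in library 2, at 3.44, and with the GC trend removed it was called higher in library 1 at -2.36.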

How the data were processed

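Polyadenylated RNA of 1 kidney sample was measured in 2 libraries, on mm10 with annotation M4, per the text deposited beside the tables; their aligner and quantifier are not given in these sources. Per the file headers, the deposited expected counts are not normalized, and posterior mean counts stand beside them. TPM and FPKM were deposited as length-corrected shares of a library, per the file headers, with credibility bounds around a posterior mean TPM that lies slightly apart from the TPM itself, at a level that is not stated. Per the file headers, transcript shares within a gene were deposited in percent.

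Symbols matched 42462 of 43346 gene identifiers (98.0%). Another 26345 rows that name no gene held 0.0 counts. Expected counts were rounded and scaled by TMM (edgeR 4.0.16, R 4.3.3) on genes that reached 10 counts in the libraries together. Having 1 library on each side, edgeR's quasi-likelihood test could not be fitted. Its place was taken by the exact conditional binomial test, two-sided (scipy 1.17.1), with Benjamini-Hochberg adjustment; log2 ratios carry a prior count of 0.5. GC content was that of the gene's leading transcript in GENCODE M21. Its trend was fitted by lowess (statsmodels 0.14.6, span 20%) to genes with 100 or more counts. Shared sequence was searched with blastn 2.17.0 at 95% identity, and 0 of the 10 genes shared 50% or more of its transcript with another gene. Simulated counts with known changes were used to check the test.

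The 10 genes, the lists and the rules were chosen with earlier results of these data known. Named transcripts took at least 10% of their gene in either library. From each pathway list the 2 genes of highest mean TPM and those under TPM 1 in both libraries were named. Of the 5 genes nearest to Slc34a1, 1 is not reported here. Alternatives were DESeq2 1.42.0 size factors, total counts, posterior mean counts, a prior count of 2, other filters on low counts, removal of the GC trend and the mitochondrial genes left out.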

Additional observations from a re-analysis of the deposited data

How the results depend on the processing

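Of 90 alternative values of the 10 log2 ratios, 77 kept their direction and side of the threshold, 5 kept only the direction and 8 changed direction. The other filters on low counts leave each ratio as it was, so their values among the 90 could not change direction. By total counts Slc34a2 stood at 0.90, Slc20a1 at 0.84 and Kl at 0.12, and 710 genes, 0 of them phosphate genes, were called higher in library 1. By posterior mean counts Slc34a2 stood at 0.0013. With the GC trend removed Slc34a1 stood at -0.68, Slc20a1 at 0.22, Slc20a2 at -0.41 and Slc9a3r1 at -1.72; 3260 genes were called, 1674 higher in library 2, 1 of them a phosphate gene, and 1586 higher in library 1. Leaving the mitochondrial genes and their 7 nuclear copies out of the TPM sum, chosen after seeing the data, kept 6 of 10 places in the order of mean levels, and leaving out 1 library kept between 2 (library 1 alone) and 10 (library 2 alone). The cause of these changes was not tested. The shares of Slc34a3 transcripts in library 1 rest on 19 counts. No paired analysis was possible because 1 group was measured in 1 library on each side.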
